A study of Homo sapiens with 2 samples.

Results

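The genes described here are 5 inhibitors of cyclin-dependent kinases (CDKs), namely CDKN1A, CDKN1B, CDKN1C, CDKN2B and CDKN2C, and 5 targets of the transcription factor p53, namely GADD45A, MDM2, CCNG1, TP53I3 and RRM2B. Their probes were picked by gene symbol, and the set was chosen with earlier results of these data known. All 10 were named on the array, among 12445 named genes in all. All 10 had a value on the first array, which measured 10347 genes, and 9 had one on the second, which measured 9359. The first array set ACC-MESO1 cells depleted of CD26 against control ACC-MESO1 cells. The second set MSTO-211H cells that had received pLNCX2, a vector carrying CD26, against control MSTO-211H cells. Both are established mesothelioma cell lines, and the question was how gene expression follows the loss or gain of CD26, a cell surface peptidase encoded by DPP4. The depleting agent is named as an siRNA in one label and as an shRNA in another. The sources used here do not say what the control cells had received.

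CDK inhibitors brake the cell cycle by binding cyclins and CDKs. The Cip/Kip members CDKN1A, CDKN1B and CDKN1C bind cyclin-CDK complexes broadly, while the INK4 members CDKN2B and CDKN2C bind the D cyclin partners CDK4 and CDK6 and so keep the retinoblastoma protein active. CDKN1A is also the best known arrest target of p53, a factor switched on by DNA damage and other stress. Loss of the INK4 locus on the short arm of chromosome 9 is frequent in mesothelioma.

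Every value below is a log2 ratio of CD26-manipulated over control cells from a single array (n = 1 per comparison), so no test and no replicate error can be given. A ratio says nothing of how abundant a transcript was, and it cannot tell fewer cells carrying a transcript from less transcript per cell. On both arrays Cy5 carried the control and Cy3 the manipulated cells, so a dye effect on a probe and an effect of the manipulation cannot be told apart. The one repeat measurement was different probes of the same gene, whose pooled SD was 0.42 after depletion (566 genes with several probes) and 0.45 after transfection (471 genes). The SD of all gene values was not much larger, at 0.48 and 0.50, so a value beyond the SD between probes is weak evidence of a change. For genes with 2 probes, the 95th percentile of the difference between them was 1.16 after depletion and 1.34 after transfection. The members' largest ratios are of about that size. Each member's value rested on 1 probe. CDKN2B had a further probe without a value on either array. DPP4 had a ratio of -3.92 in depleted and 5.51 in transfected cells, in the directions the labels give. "Past 2-fold" means 1 or more above or below 0 on the log2 scale.

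After CD26 depletion 2 of the 10 genes, GADD45A and CDKN1A, were at least 2-fold higher, beside 3.31% of all genes of that array. None of the 10 was at least 2-fold lower, beside 1.56% of all genes. After CD26 transfection 1 of 9, TP53I3, was at least 2-fold higher, beside 4.09% of all genes, and 0 were at least 2-fold lower, beside 1.37%. The medians of the members lay near 0, at -0.13 after depletion and -0.16 after transfection. Above 0 were 4 of 10 and 3 of 9 members, beside 51.3% and 50.7% of all genes. The medians of all genes were 0.012 and 0.0072. Single members spread in both directions on the depletion array, from -0.95 for CDKN2C to 1.35 for GADD45A. On that array 6 of 10 members lay farther from 0 than the SD between probes, as did 29.0% of all genes. On the transfection array 2 of 9 did, TP53I3 and RRM2B, as did 26.5% of all genes.

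**Figure D1:**
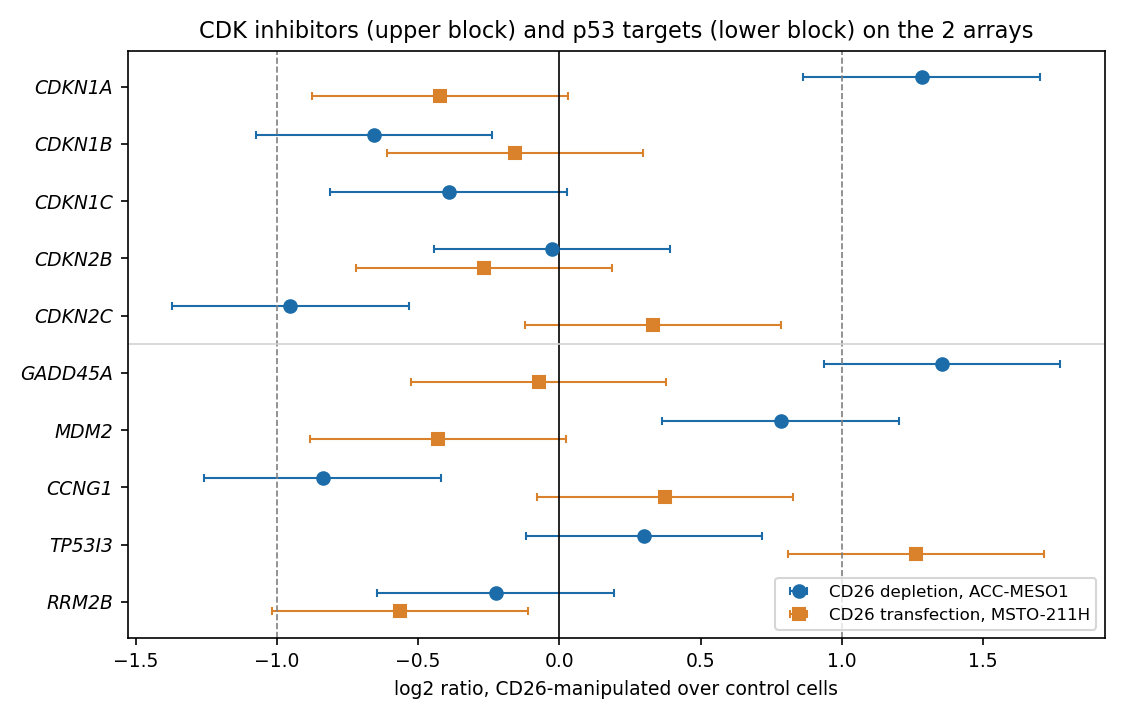
Log2 ratio of CD26-manipulated over control cells for each gene (horizontal axis) after CD26 depletion in ACC-MESO1 (circles) and after CD26 transfection in MSTO-211H (squares), 1 array each. Bars show the spread among probes of 1 gene, as a pooled SD per array (0.42 and 0.45), not a replicate error, and dashed lines mark 2-fold. CDKN1A and GADD45A lie beyond the line after depletion, and TP53I3 after transfection.

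CDKN1A, whose product p21 stops CDKs in response to p53 and to many other signals, had a log2 ratio of 1.28 in CD26-depleted ACC-MESO1 cells, which is 2.43-fold higher than in the control. Of all genes on that array, 1.88% were at least as high. In CD26-transfected MSTO-211H cells CDKN1A had a ratio of -0.42, 1.34-fold below the control and within the SD between probes. Its values therefore lay on opposite sides of 0 on the arrays that lowered and raised CD26.

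The bases around the start of CDKN1A transcription are shown because this gene was among the highest members after depletion. RefSeq promoter windows run from 250 bases before to 50 bases after a gene's start in GRCh38.p14. Those of 7 of the 10 genes were searched. Windows of CDKN1C, GADD45A and RRM2B were not analysed here, which says nothing of whether such windows exist. The CDKN1A window is chr6:36678464-36678763 on the plus strand. Capitals mark the letters GGGCGG, the core of a box bound by Sp1-type factors, searched on both strands.

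CDKN1A: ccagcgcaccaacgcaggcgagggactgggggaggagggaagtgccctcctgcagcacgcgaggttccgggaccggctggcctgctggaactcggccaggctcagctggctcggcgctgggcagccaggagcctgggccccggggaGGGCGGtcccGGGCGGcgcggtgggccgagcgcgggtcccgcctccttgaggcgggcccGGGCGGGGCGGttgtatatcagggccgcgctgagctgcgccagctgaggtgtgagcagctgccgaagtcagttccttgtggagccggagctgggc

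The window holds GGGCGG 4 times, the last pair overlapping by 1 base, and 74.3% of its bases are G or C. The same letters occur in 45.0% of the 35114 promoter windows of this length. A p53 response element, searched as described for MDM2 below, was not among the letters of this window.

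CDKN1B, whose product p27 holds back the CDK2 complexes of quiescent cells, had a ratio of -0.66 after depletion, 1.58-fold lower than the control. Of all genes, 5.69% were at least as low. After transfection it had -0.16, well within the SD between probes. CDKN1C encodes p57, an inhibitor of the same family that is expressed from the maternal copy of its gene. It had -0.39 after depletion, also within that SD, and was without a value after transfection. The Cip/Kip genes thus did not move as a block in depleted cells: CDKN1A was higher than its control, and the other members of the family were lower or near it.

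The INK4 gene CDKN2C, which encodes p18, was the lowest of the 10 after depletion, at -0.95 or 1.94-fold lower, just short of 2-fold. Only 1.91% of all genes of the array were at least as low. After transfection it had 0.33, within the SD between probes. CDKN2B, the p15 gene that TGF-beta is known to induce, had -0.026 after depletion and -0.27 after transfection, both within the SD between probes. Next to it on chromosome 9, CDKN2A had 0.23 and -0.43 and the methylthioadenosine phosphorylase gene MTAP had 0.071 and 0.22. CDKN2A and CDKN2B are close paralogs, and their probes may share signal. The fourth INK4 gene, CDKN2D, had 0.12 and -0.55. Of the INK4 genes, CDKN2C after depletion and CDKN2D after transfection thus lay farther from 0 than the SD between probes.

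GADD45A, a stress protein that binds p21 and holds cells before mitosis, had the highest ratio of the 10 in depleted cells, 1.35 or 2.56-fold above the control, with 1.63% of all genes at least as high. In transfected cells it had -0.073, close to the array median. Its relative GADD45B had 0.44 after depletion and 0.022 after transfection. GADD45G had no value after depletion and 1.66 after transfection. Like GADD45G, 403 genes had a value only after transfection, and 31.8% of them were past 2-fold there, where the share among the 8956 genes with both values was 4.28%.

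MDM2, the ubiquitin ligase that marks p53 for destruction and is itself induced by it, was 1.72-fold higher after depletion, with a ratio of 0.78. Of all genes, 5.75% were at least as high. After transfection it had -0.43, 1.35-fold lower and within the SD between probes. MDM2 is thereby the third member, after CDKN1A and GADD45A, with a value above 0 after depletion and below 0 after transfection. Of all genes with both values, 24% had this pattern, and GADD45A was close to 0 after transfection (-0.073).

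MDM2 has a start site inside the gene that is a textbook example of control by p53, and its window is printed for that reason. The window is chr12:68808767-68809066 on the plus strand. Capitals mark matches to the p53 response element, searched as a pair of 10-base half-sites with no spacer and at most 3 mismatches to the consensus in 20 bases; the consensus reads the same on both strands.

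MDM2: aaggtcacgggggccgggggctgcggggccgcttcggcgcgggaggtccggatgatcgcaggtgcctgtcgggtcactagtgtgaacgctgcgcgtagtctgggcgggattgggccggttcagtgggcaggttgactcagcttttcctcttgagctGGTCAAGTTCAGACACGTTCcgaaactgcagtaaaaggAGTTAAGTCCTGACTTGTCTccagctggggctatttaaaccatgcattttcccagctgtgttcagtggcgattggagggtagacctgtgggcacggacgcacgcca

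The window holds 2 matches, which begin 94 and 56 bases before the start site. Of the 35114 windows, 5.20% hold at least 1. Among the 13 windows of the 7 genes, matches also occurred once in CDKN1B and once in CDKN2B, and in a further MDM2 window shifted by 7 bases. The individual elements are set side by side here to show how far each departs from the consensus, with matching letters in capitals and mismatches in lower case.

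MDM2, upstream element: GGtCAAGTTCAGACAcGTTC
MDM2, downstream element: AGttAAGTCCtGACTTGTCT
CDKN1B: AGGCcAGCCaGAGCAgGTTT
CDKN2B: tAGCATcTTTGGGCAgGCTT

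The upstream MDM2 element has 2 mismatches and the others have 3 each. MDM2 had 0.78 after depletion, while CDKN1B and CDKN2B, which also hold a match, had -0.66 and -0.026. CDKN1A, CCNG1, TP53I3 and CDKN2C have no match in their windows, which says nothing of elements farther away.

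CCNG1 encodes cyclin G, a p53 target that brings a phosphatase to MDM2. It had -0.84 after depletion, 1.79-fold lower than the control, with 2.79% of all genes at least as low. After transfection it had 0.37, within the SD between probes. Its pair of values resembled that of CDKN2C and was the mirror image of those of CDKN1A and MDM2. The related CCNG2 had -0.41 and -0.30, and the cyclin G associated kinase gene GAK had 0.13 and -0.11.

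TP53I3, a quinone oxidoreductase gene linked to oxidative stress in p53-driven cell death, was the one member past 2-fold in CD26-transfected cells. Its ratio there was 1.26, or 2.40-fold above the control, and 2.32% of all genes of that array were at least as high. After depletion it had 0.30, within the SD between probes. It was the only member with a value above 0 on both arrays, which 26.6% of all genes shared. RRM2B, the p53-inducible small subunit of ribonucleotide reductase, which supplies nucleotides for DNA repair, had -0.23 after depletion and -0.56 after transfection. The latter was 1.48-fold below the control and the lowest value among the members on that array, with 7.15% of all genes at least as low. The other subunits, RRM1 (-0.087 and -0.14) and RRM2 (0.085 and 0.21), stayed within the SD between probes on both arrays.

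Of the 9 members measured on both arrays, 5 had opposite signs after depletion and transfection, as did 46.9% of all 8956 genes. CDKN1A, GADD45A and MDM2 were above 0 after depletion and below 0 after transfection, a pattern of 24% of all genes. CDKN2C and CCNG1 had the reverse pattern, seen in 22.9%. CDKN1B, CDKN2B and RRM2B were below 0 on both arrays, like 26.5% of all genes. With each array centred on ribosomal protein genes, 4 of 9 members were above 0 after depletion and below 0 after transfection, beside 20.4% of all genes. GADD45A, at 0.18 after transfection with that centring, was not among them. As deposited, 0 of the 9 members had values farther from 0 than the SD between probes on both arrays, beside 8.25% of all genes. With each array centred on ribosomal protein genes there were 3, beside 17.4% of all genes, namely CCNG1 (-0.49 and 0.62), CDKN2C (-0.60 and 0.58) and TP53I3 (0.65 and 1.51).

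**Figure D2:**
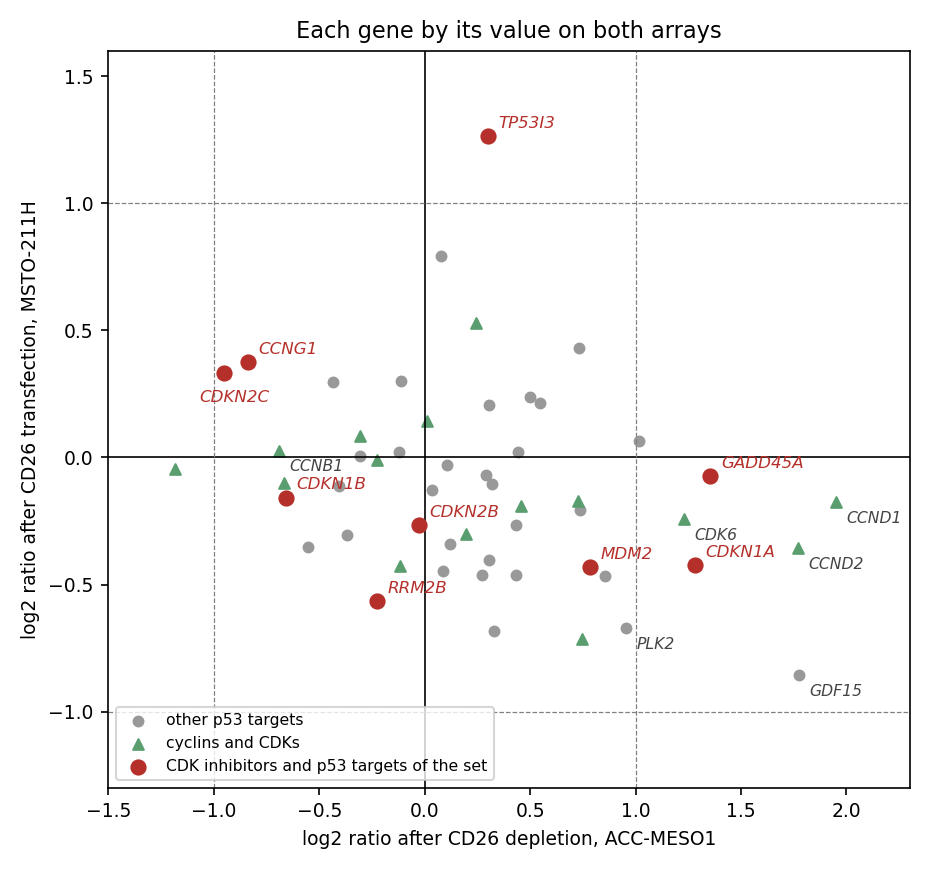
Log2 ratio after CD26 depletion in ACC-MESO1 (horizontal axis) against log2 ratio after CD26 transfection in MSTO-211H (vertical axis). Shown are the 9 members measured on both arrays (large circles), the other p53 targets (small circles) and the list of cyclins and CDKs with MNAT1 (triangles). Dashed lines mark 2-fold. CDKN1A, GADD45A and MDM2 lie at the lower right, with GDF15, PLK2, CCND1, CCND2 and CDK6, and CCNG1 and CDKN2C lie at the upper left.

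The genes whose pair of ratios lay nearest to that of CDKN1A, by Euclidean distance over the 2 arrays, were P3H2 (1.20 and -0.39), THBS1 (1.40 and -0.45) and ZP2 (1.15 and -0.42). Nearest to GADD45A were the integrin gene ITGA5 (1.29 and -0.072), SOX6 (1.42 and -0.10) and the myosin light chain gene MYL9 (1.36 and 0.0078). Nearest to TP53I3 were TNKS (0.31 and 1.30), ARHGAP15 (0.28 and 1.23) and MAPKAPK2 (0.32 and 1.22). With a pair of values per gene, such nearness describes these arrays alone.

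Other targets of p53, from a list that excluded the 10 genes, were more often above than below 0 after CD26 depletion. Of 47 listed genes, 34 were named on the array and 33 were measured after depletion. Listed genes not named on the array were not analysed here. Above 0 were 25 of the 33, beside 51.3% of all genes, and the median of the 33 was 0.27. At least 2-fold higher were 2, beside 3.31% of all genes, and 0 were at least 2-fold lower, beside 1.56%. The 2 were the stress cytokine gene GDF15 (1.77) and SESN2 (1.02), a sestrin that restrains growth signalling. PLK2 (0.95), a kinase, SFN (0.85), which encodes the 14-3-3 protein stratifin, and the repair gene DDB2 (0.73) followed, and APAF1 (-0.84), the core of the apoptosome, was the lowest. After transfection 12 of 30 were above 0, beside 50.7% of all genes, with a median of -0.11. Only GADD45G was past 2-fold, on the higher side, beside 4.09% of all genes higher and 1.37% lower. GDF15 was the lowest there, at -0.86. With each array centred on ribosomal protein genes, 28 of 33 and 18 of 30 were above 0, beside 83.8% and 75.9% of all genes, and the medians were 0.63 and 0.14, so the sign of the transfection median turned.

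By role, the arrest and stress targets had the highest median after depletion, 0.44 over 11 genes, and -0.17 over 10 after transfection. After depletion they ran from TP53INP1 (-0.55) to GDF15 (1.77), and 9 of 11 were above 0, beside 51.3% of all genes. The apoptosis targets had 0.10 over 13 and -0.069 over 11. None of these was past 2-fold on either array, beside 3.31% and 4.09% of all genes higher and 1.56% and 1.37% lower. The apoptosis targets ran from APAF1 to the decoy receptor gene TNFRSF10D (0.73) after depletion, and from BID (-0.68) to PIDD1 (0.79) after transfection. The pro-apoptotic genes PMAIP1 (0.10 and -0.031) and BAX (0.034 and -0.13) lay within the SD between probes on both arrays, and BBC3 (0.27 and -0.46) lay just beyond it after transfection. The repair and metabolism targets had 0.31 and -0.21 over 9 genes each, with XPC (-0.37) the lowest after depletion and POLH (-0.46) the lowest and ALDH4A1 (0.30) the highest after transfection. With ribosomal protein centring the transfection medians of these groups were 0.076, 0.18 and 0.044, on the other side of 0.

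Of the 29 other p53 targets measured on both arrays, 15 were above 0 after depletion and below 0 after transfection, as were 24% of all genes. With ribosomal protein centring they were 10 of 29, beside 20.4% of all genes. GDF15 (1.77 and -0.86), PLK2 (0.95 and -0.67), SFN (0.85 and -0.47) and the repair polymerase gene POLH (0.43 and -0.46) had values beyond the SD between probes on both arrays as deposited, 4 of 29 beside 8.25% of all genes. With ribosomal protein centring, GDF15 (2.13 and -0.61) was still beyond it on both, while PLK2 (-0.42), SFN (-0.22) and POLH (-0.21) were within it after transfection.

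MDM4, with MDM2 a main inhibitor of p53, had 0.30 after depletion and 0.42 after transfection. The list of p53 relatives and regulators had medians of 0.13 over 20 genes and 0.080 over 18. Above 0 were 14 of 20 and 10 of 18, beside 51.3% and 50.7% of all genes. None was past 2-fold, beside 3.31% and 4.09% of all genes higher and 1.56% and 1.37% lower. The phosphatase gene PPM1D (0.48) was the highest and TP53BP1 (-0.46) the lowest after depletion. MDM4 was the highest and TP73 (-0.63) the lowest after transfection.

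**Figure D3:**
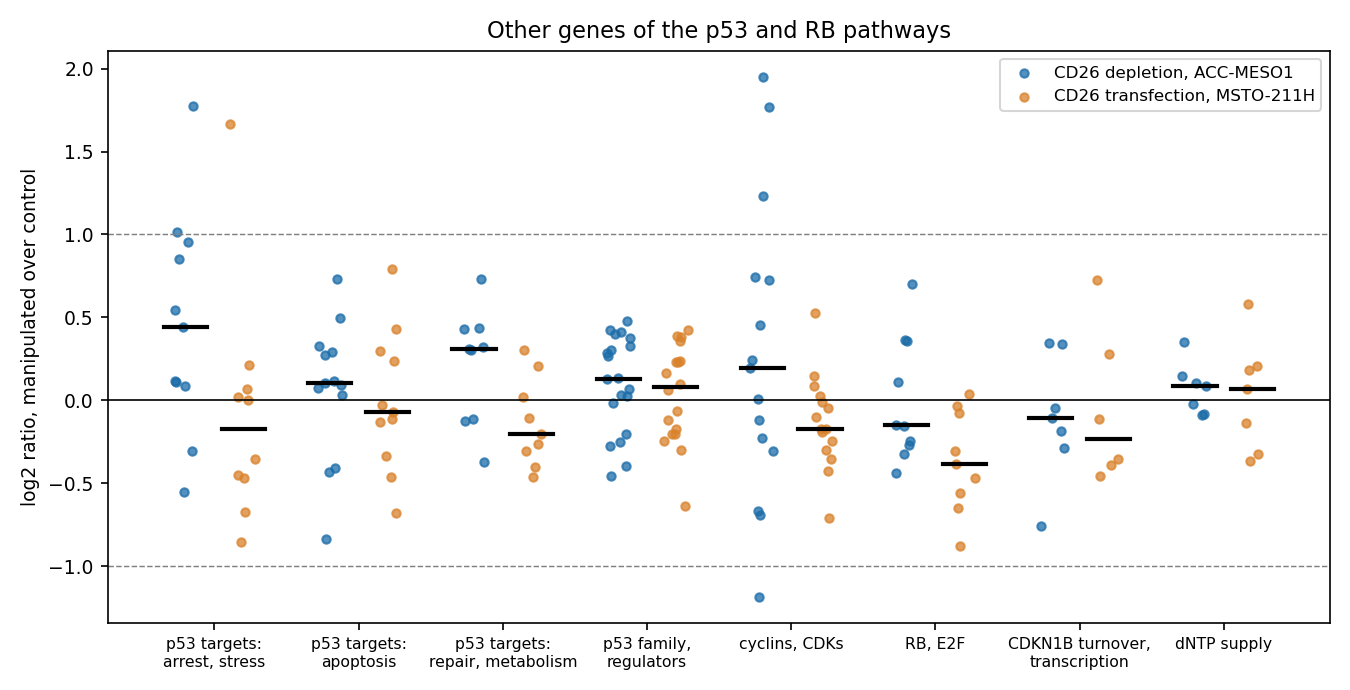
Log2 ratio of manipulated over control cells (vertical axis) of each measured gene in 8 lists related to p53, the CDK inhibitors or the retinoblastoma pathway, after CD26 depletion (left of each pair) and transfection (right). Thick lines are list medians and dashed lines mark 2-fold. The arrest and stress targets have a median of 0.44 after depletion, and the cyclins and CDKs spread from -1.19 to 1.95 there.

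A list of cyclins and CDKs, which also held MNAT1, had ratios from -1.19 to 1.95 in depleted cells. CDK1 was on the list but was not analysed here. Of the 15 listed genes measured, 3 were at least 2-fold higher, beside 3.31% of all genes. They were the D cyclin genes CCND1 (1.95) and CCND2 (1.77) and their kinase CDK6 (1.23). One further gene, CCNA1 (-1.19), a cyclin best known from the germline, was at least 2-fold lower, beside 1.56% of all genes. The E cyclin genes CCNE1 (0.74) and CCNE2 (0.73) were also farther above 0 than the SD between probes. The mitotic cyclin genes CCNB1 (-0.69) and CCNB2 (-0.67) were farther below 0 than that SD. CDK4 had 0.20 and CDK2 had -0.12. After transfection none of the 15 was past 2-fold, beside 4.09% of all genes higher and 1.37% lower. Above 0 were 4 of them, beside 50.7% of all genes. The list ran from CCNE1 (-0.71) to MNAT1 (0.53), with CCND1 at -0.18, CCND2 at -0.36 and CDK6 at -0.24. The list medians were 0.20 and -0.17. With ribosomal protein centring, which lifts all genes, 5 of 15 reached 2-fold above the control after depletion, beside 8.24% of all genes. The transfection median was then 0.077.

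The retinoblastoma and E2F genes, on which CDK inhibition acts, had medians of -0.15 over 10 genes after depletion and -0.38 over 9 after transfection. Above 0 were 4 and 1 of them, beside 51.3% and 50.7% of all genes. None was past 2-fold on either array, beside 3.31% and 4.09% of all genes higher and 1.56% and 1.37% lower. RBL2 (-0.44) and E2F3 (0.70) bounded the list after depletion. TFDP1 (-0.88) and RBL1 (0.036) bounded it after transfection. Centring on ribosomal protein genes turned the depletion median to 0.20 and left the transfection median below 0, at -0.13. Above 0 were then 9 of 10 and 3 of 9, beside 83.8% and 75.9% of all genes.

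Of the 10 listed genes that control the amount of p27, 7 were measured after depletion and 6 after transfection. Past 2-fold were 0 of these, beside 3.31% and 4.09% of all genes higher and 1.56% and 1.37% lower. SKP2, CKS1B and SKP1, parts of the ligase that marks p27 for destruction, were not analysed here. FOXO1 (-0.76), a transcription factor known to activate CDKN1B, was the lowest of 7 after depletion, with CDKN1B itself at -0.66, and FOXO3 (0.35) was the highest. After transfection the range over 6 genes ran from KPNA1 (-0.46) to FOXO3 (0.73). Genes of nucleotide supply, the pathway of RRM2B, had medians of 0.085 and 0.068 over 7 genes. They ran from RRM1 (-0.087) to DCK (0.35) after depletion and from TYMS (-0.37) to DUT (0.58) after transfection.

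To place the members on their chromosomes, each was set beside the 5 nearest measured protein-coding genes on each side. After depletion CDKN1A (1.28), GADD45A (1.35) and MDM2 (0.78) each lay above all 10 neighbours, the highest of which were at 0.42, 0.90 and 0.58. CDKN1B (-0.66) and CDKN2C (-0.95) lay below all of theirs, the lowest of which were at -0.56 and -0.32. Few genes of the array lay as far from 0 as these members, so such a place among 10 neighbours partly restates their rank. After transfection RRM2B (-0.56) lay below all 10 neighbours, whose lowest was -0.24. TP53I3 (1.26) lay above all but PFN4 (1.76), and the median of its neighbours was 0.16. CCNG1 differed, since 9 of its 10 neighbours on chromosome 5 were above 0 after transfection, with a median of 0.68 that exceeded the 0.37 of CCNG1. Of these 10, 4 were at least 2-fold higher, beside 4.09% of all genes, namely TENM2 (2.08), FABP6 (1.57), GABRB2 (1.29) and SLIT3 (1.04). GABRB2 had a value only after transfection. The neighbours of CCNG1 after depletion had a median of -0.0018, and ran from PTTG1 (-1.10) to TENM2 (1.61), with FABP6 at 0.75. The part of the neighbourhood in the value of CCNG1 was not tested.

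**Figure D4:**
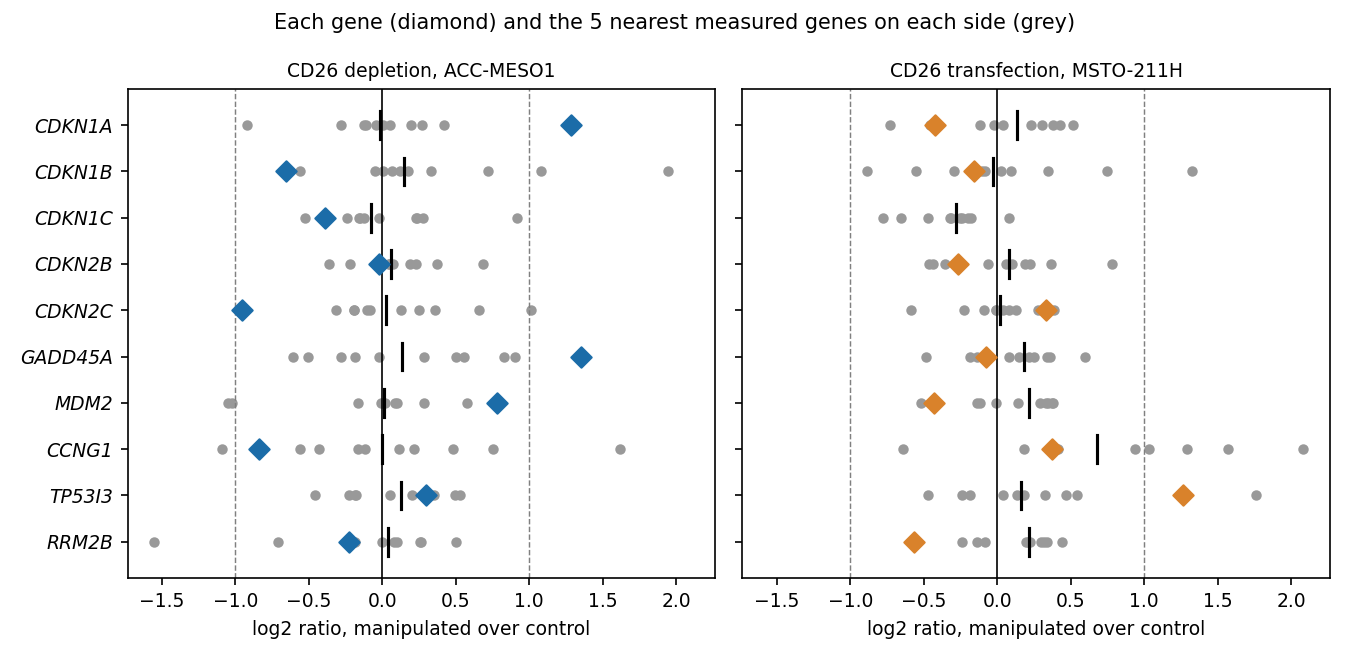
Log2 ratio of manipulated over control cells (horizontal axis) of each member (diamond) and of the 5 nearest measured protein-coding genes on each side of it (grey points, with their median as a black line), after CD26 depletion (left) and transfection (right). CDKN1C has no diamond on the right because it had no value there. CDKN1A, GADD45A and MDM2 lie above all their neighbours after depletion, and the neighbours of CCNG1 are shifted to a median of 0.68 after transfection.

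Markers of cell types were measured only as ratios. Of 12 mesothelial markers named on the array, 12 had a value after depletion and 11 after transfection, with medians of 0.069 and 0.017. ITLN1 (1.38) was past 2-fold after depletion, and MSLN (-1.31) and KRT18 (-1.16) after transfection, so the mesothelial genes did not share 1 direction. The lowest after depletion was WT1 (-0.37) and the highest after transfection UPK3B (0.66). The leukocyte gene PTPRC and the endothelial gene PECAM1 had no value on either array. Of the leukocyte markers 3 and 4 were measured, with medians of 0.34 and -0.53, from CD3D (-0.072) to CD68 (0.47) after depletion and from CD68 (-0.89) to CD3E (1.88) after transfection. CD3E had a value only after transfection. Endothelial medians were -0.066 over 5 genes and -0.42 over 4, from VWF (-0.22) to CLDN5 (0.29) and from ERG (-0.51) to CLDN5 (0.57). Fibroblast medians were -0.044 and -0.46 over 6 genes each, from LUM (-0.89) to FAP (0.71) and from FAP (-1.76) to THY1 (0.75). The part of other cells in the members' values was not tested.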

How the data were processed

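Total RNA of cultured cells was amplified, dye-coupled and hybridised to 2 arrays of 2 colours, per the labels' protocols. The authors deposited normalized log2 ratios of manipulated over control cells, and each array's median over its probes is 0. How background was corrected, how ratios were normalized and why some probes lack a value is not stated in the sources used here. The brightness of each channel was not analysed, so signal over background is unknown. Of 24267 probes, 19622 had a value after depletion and 17737 after transfection. The platform annotation gave 1 symbol for 13395 probes and none for 10872. Of 12474 distinct symbols, 10076 were current in the RefSeq annotation of GRCh38.p14, 2285 were replaced by the gene they are a synonym of, and 113 that fit several genes stayed as listed. Where a gene had several probes, their mean was taken. With 1 array per comparison no test was possible, so genes were described by a log2 threshold of 1, beside the share of all genes past it. The number of arrays limits the precision.

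The members and lists were chosen with earlier results of these data known. The gene lists are textbook lists written by hand. Apart from the ribosomal protein genes, which served for centring only, the text names the genes of each list past 2-fold or at its extremes. It also names all members, MDM4, CDKN2A, MTAP and DPP4, and the 3 genes nearest to each member past 2-fold. Other genes named were chosen after their values were seen, as were the comparison with chromosome neighbours and the promoter searches. Alternatives were another centring, a common spread, other rules for probes and thresholds, and only genes on both arrays. Computations used Python 3.11.15 with pandas 2.3.3 and were tested on simulated data.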

Additional observations from a re-analysis of the deposited data

How the results depend on the processing

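Centring on the 32 measured ribosomal protein genes moved every gene up by 0.35 on the depletion array and by 0.25 on the transfection array. It turned the median of the members from -0.13 to 0.23 after depletion and from -0.16 to 0.092 after transfection, and gave 3 members at least 2-fold higher after depletion, MDM2 being the third, beside 8.24% of all genes higher and 0.406% lower (7.32% and 0.566% after transfection). The sign turned for CDKN2B and RRM2B after depletion and for CDKN1B and GADD45A after transfection. At a log2 threshold of 1.5, 0 members were higher after depletion and 0 after transfection, beside 1.21% and 1.51% of all genes. At 0.5, 3 members were lower after depletion (CCNG1, CDKN1B and CDKN2C) and 1 after transfection (RRM2B), beside 9.8% and 9.4% of all genes, and 3 were higher after depletion (CDKN1A, GADD45A and MDM2) and 1 after transfection (TP53I3), beside 12.8% and 13.1%. A common spread left CDKN1A, GADD45A and TP53I3 as the members past 2-fold. Other rules for probes and the restriction to genes on both arrays could not change a member's value, since each rested on 1 probe, and say nothing of stability. No paired analysis was possible because each comparison has 1 array. Since intensities are unknown, a dim probe could not be told from a bright one.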
